A study of Homo sapiens with 10 samples.

Results

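Total and newly made RNA were compared between K562 cells exposed to actinomycin D and cells that received the solvent DMSO. The comparison used 4 of the 10 libraries of the series, with 2 libraries for each treatment, and all 59204 genes listed in the human tables. K562, a human cell line, was derived from chronic myeloid leukemia and expresses genes of the red cell and platelet lineages. Actinomycin D was given at 1 µg/mL for 2 hours, DMSO cells were treated for 2 hours as well, and both received 100 µM 4-thiouridine in the last hour. Cells build 4-thiouridine into RNA in place of uridine, and after chemical conversion it appears as T-to-C mismatches, which mark the reads of RNA made in that hour. The other 6 libraries, 2 each from cells given AZ-5576 (1 µM for 2 hours, with the same label), JQ1 or A-485, helped to estimate the spread between libraries, and those of AZ-5576, an inhibitor of the kinase CDK9, were also compared with actinomycin D. One cell line was used, the labels do not say whether replicates came from separate cultures, and the p-values therefore measure only the spread between these libraries, which may be technical.

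Actinomycin D slides between the base pairs of DNA and blocks the RNA polymerases that move along it. In a cell that makes no RNA, the level of each mRNA falls at the rate at which that mRNA is broken down, and such a run-down is a classical way to rank transcripts by stability. Messages of transcription factors, signalling inhibitors and cytokine regulators are known for fast decay, often through AU-rich stretches in the 3′ UTR that recruit the deadenylation machinery. Messages of ribosomal proteins, metabolic enzymes and globins are known to be long-lived.

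New RNA was nearly gone with the drug. Labelled human counts were 448401 and 434411 in the DMSO libraries and 1410 and 1614 in the actinomycin D libraries, out of total human counts between 15488717 and 17918971. Labelled counts fell in 7933 of 7996 genes tested (99.2%; edgeR), and on the spike-in scale 0 rose by edgeR, also at an unadjusted p under 0.05, or by DESeq2. No labelled read at all was counted in either actinomycin D library for 7419 of the genes tested (92.8%). Genes were tested if they had at least 10 labelled counts in 2 or more of the 10 libraries. Nearly all therefore passed through libraries of the other treatments, so the share that fell was largely set by that filter. The pool of mRNA moved far less: per spike-in count there were 8.18 and 8.99 human counts in DMSO and 7.69 and 8.23 with the drug, which is 92.7% of the DMSO mean, and the groups overlapped. The spike-in, Drosophila RNA, was added at 5% to purified RNA, so every level below is per amount of RNA. Changes in the number of cells or in the RNA per cell were not measured. The erythroid and megakaryocytic markers had a summed level of 35940 and 41130 scaled counts in DMSO and 35790 and 38630 with the drug. The markers of lymphoid, myeloid and non-blood cells summed to 1406 and 1568 against 1393 and 1342. Of these 21 markers, 6 had no count, among them MPO, MS4A1, KRT5 and VWF, and 6 others had at least 100 counts in DMSO.

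Total RNA was tested in 14572 genes, those that reached 10 counts in 2 or more libraries; the remaining genes were too low to test. Levels are given as total counts per 1000000 spike-in counts, called scaled counts below. Over all genes tested the median change was -0.27 on the log2 scale, so that 83% of the DMSO level was left. Lower total RNA was called in 2874 genes (19.7%) and higher total RNA in 49 (0.336%), at an edgeR adjusted p under 0.05. The count of falls depended on single libraries: leaving out DMSO replicate 2 gave 1205 falls, and leaving out replicate 1 or 2 of actinomycin D gave 1708 or 1877. Rises numbered 32 when DMSO replicate 2 was left out and 27 when actinomycin D replicate 2 was. Both drug libraries lay below both DMSO libraries in 52.3% of the genes tested. On the TMM scale, which sets the bulk of genes level and moved the median by 0.25, 1153 genes (7.91%) fell and 791 (5.43%) rose. Among the 2874 falls, 1047 had less than 50% of their DMSO level left and 361 less than 25%.

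The loss was graded by how much of a gene's RNA carried label. For each gene the labelled share, labelled counts over total counts in DMSO, was taken as a measure of how much was made within the label hour. It counts only reads with T-to-C conversions, true or false, so it is not the fraction made. By this share 8491 genes with a mean of at least 100 DMSO counts were placed in 10 deciles, leaving out mitochondrial genes and pseudogenes. In the lowest decile, with a median share of 0.58%, the median change in total RNA was -0.004 (99.7% left) and 11 of 850 genes fell (1.29%). In decile 5, with a median share of 3.12%, it was -0.19 and 120 of 849 genes fell. In the highest decile, with shares from 11.6% to 64.8% and a median of 16.3%, it was -0.81 (57.1% left), and 640 of 849 genes fell (75.4%). Each decile in between had a lower median than the one before it, and 68.2% of the falls among these genes lay in the upper 3 deciles. The 2 drug libraries gave alike values in the highest decile, 56.6% and 55.8% left, and 94.9% and 104% in the lowest.

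Taken as a steady loss over the 2 hours, the medians amount to 0.152% per hour in the lowest decile, 6.46% in decile 5 and 24.4% in the highest. The median labelled shares were 0.58%, 3.12% and 16.3%, and since they count only converted reads the sizes of loss and share cannot be equated. Across the 8491 genes the rank correlation of share and change was -0.69, a description across genes, which are not independent replicates. Both measures use the DMSO libraries. With the share from one DMSO library and the change measured against the other, the correlation was -0.64 and -0.61. The upper deciles also held genes of lower expression: the median DMSO level fell from 861.2 counts in the lowest decile to 237 in the highest, and the part of this in the result was not tested. On the TMM scale the lowest decile stood at 0.25 and the highest at -0.55, with the order of the deciles kept.

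**Figure D1:**
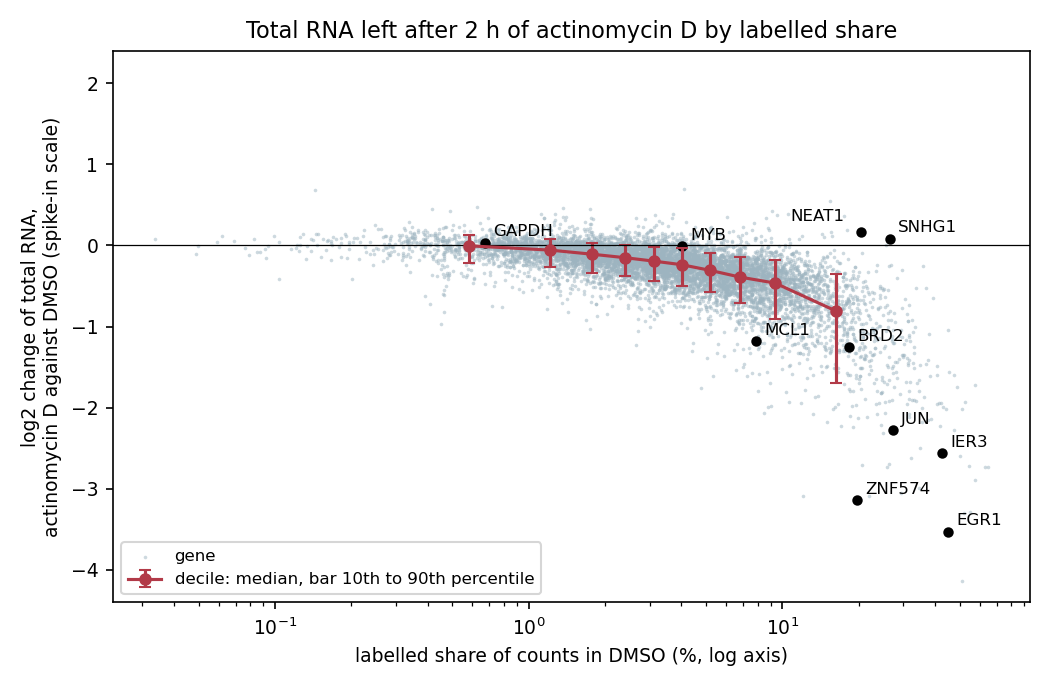
Each grey point is a gene with a mean of at least 100 DMSO counts, placed by its labelled share in DMSO (x, percent, log axis) and its log2 change in total RNA with actinomycin D (y, spike-in scale); 70 genes with no labelled count are not drawn. Red points are decile medians with bars from the 10th to the 90th percentile, and they go from -0.004 in the lowest decile to -0.81 in the highest, with SNHG1 and NEAT1 above the band and ZNF574 and EGR1 below it.

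Immediate early transcription factors, which cells induce within minutes of a stimulus without new protein, ran down furthest of the 41 lists by median. Of 26 measured, 24 fell (92.3%, against 19.7% of all genes), the median change was -1.73 (30.2% left), and 21 fell on the TMM scale. EGR1 (chromosome 5, 138465490 to 138469315, hg38), a zinc finger factor of growth signalling, went from 196.8 and 154.6 scaled counts to 6.456 and 23.43, a log2 change of -3.53 (SE 0.29, edgeR adjusted p = 2.63e-08). JUN (chromosome 1, 58780788 to 58784327), a subunit of AP-1, went from 144 and 158.4 to 22.35 and 39.5, with 20.5% left. In both genes the drug libraries lay far below the DMSO libraries, and the 2 drug libraries themselves differed widely. JUNB kept 20.1% (310.7 and 353.2 in DMSO, 61.58 and 71.66 with the drug), while JUND, a related AP-1 subunit with a smaller labelled share, 8.45% against 24.9% for JUNB, kept 56.8%. IER2 fell by 1.26 (SE 0.13) and kept 41.8%. FOSB, whose counts were low, went from 30.07 and 45.11 to 3.973 and 3.675. MYC, the growth-promoting factor, went from 253.8 and 221.2 to 75.98 and 58.8 (28.4% left, SE 0.19 on the log2 scale, edgeR adjusted p = 2.14e-09).

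Under a constant rate of loss with no synthesis, these values correspond to half-lives of 0.562 hours for EGR1, 0.873 for JUN, 0.863 for JUNB, 1.1 for MYC, 1.59 for IER2 and 2.45 for JUND. Each half-life rests on the mean of 2 drug libraries, which kept 3.68% and 13.3% for EGR1 and 14.8% and 26.1% for JUN. Synthesis before the label hour was not measured. All 18 list members that were placed in a decile lay below the median of that decile, and 13 of the 18 were in the highest decile. Their median distance from it was -1.07 on the log2 scale, a description, since the list was drawn up with earlier results known.

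The next 3 lists hold inhibitors and regulators of signalling. In the order given below, 53.8%, 41.7% and 38.5% of their measured genes fell, beside 19.7% of all genes tested. The Sprouty proteins restrain ERK signalling, and SPRY4 went from 46.95 and 51.16 scaled counts to 0.9932 and 2.756 (3.82% left, edgeR adjusted p = 6.2e-08), while SPRY2 kept 11.5%. In the list of ERK feedback phosphatases and Sprouty proteins 7 of 13 fell, with a median of -0.92 (-1.236 to -0.849 without 1 library). NFKBIA (chromosome 14, 35401511 to 35404749), which holds NF-kB in the cytoplasm, went from 177.3 and 149.6 to 16.39 and 24.35, with 12.5% left. In its list of NF-kB and interferon regulators, with a median of -0.44 and 73.7% left, 10 of 24 fell (5 or 6 on leaving out DMSO replicate 2 or actinomycin D replicate 1), and IRF1 kept 23.6%. Of the cytokine feedback genes 5 of 13 fell, with a median of -0.54 (69% left; -0.33 without DMSO replicate 2). CISH, a brake on STAT5 signalling, kept 20.8%, SOCS3 kept 26.8% and the kinase PIM3 28.8%.

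ID proteins block basic helix-loop-helix factors, and 11 of 17 genes in the list of ID, SMAD, HES and Notch feedback genes fell (7 without DMSO replicate 1 or without actinomycin D replicate 2), with a median of -1.14. ID3 went from 396.7 and 448.4 scaled counts to 94.36 and 133.2, with 26.9% left. ID1 and ID2 kept 38.5% and 37%. The share of falls among the ID, SMAD, HES and Notch feedback genes was 64.7%, beside 19.7% of all genes tested. BAMBI, a decoy receptor for TGF-β family ligands, had the lowest level left among named genes, from 33.76 and 46.76 to 1.986 and 0. Its fitted change of -5.30 rests on few counts and was -9.34 without actinomycin D replicate 1. A further list promotes mRNA decay itself. ZFP36 binds AU-rich elements and kept 6.35%, from 24.27 and 20.91 to 1.49 and 1.378. Its relatives ZFP36L1 and ZFP36L2 kept 39.2% and 39.8%, and the antiproliferative BTG1 kept 41.8%. In that list of decay-promoting proteins 10 of 20 fell (50%, against 19.7% of all genes) with a median of -0.70. HNRNPD and KHSRP, abundant AU-rich element binders, were at 91.7% and 95.6% and were not called.

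**Figure D2:**
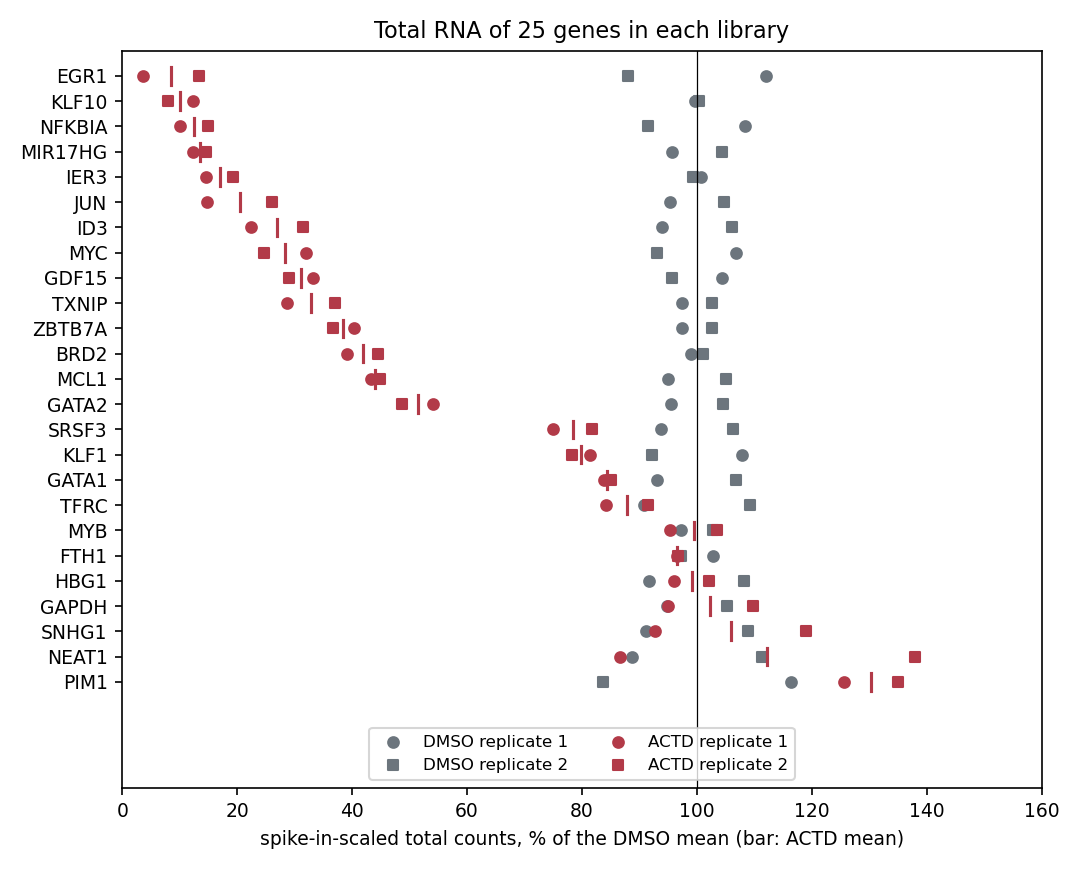
Scaled total counts of 25 genes in each library as percent of the gene's DMSO mean (x axis), with DMSO in grey, actinomycin D in red, replicate 1 as circles, replicate 2 as squares and the actinomycin D mean as a bar. From EGR1 to GATA2 the drug libraries lie apart from and below both DMSO libraries, while those of MYB, HBG1, GAPDH, SNHG1 and NEAT1 overlap the DMSO libraries in range.

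Transcription factors of the erythroid and megakaryocytic lineage ran down as a list, though its best known member did not pass the test. Of 26 measured, 18 fell (69.2%, against 19.7% of all genes), with a median of -0.67 and 62.9% left. On the TMM scale 12 fell. On the spike-in scale 23 of 25 placed in a decile lost more than that decile's median. ZBTB7A, a repressor of fetal globin, went from 1901 and 2002 scaled counts to 787.1 and 714.3 (log2 change -1.38, SE 0.11, edgeR adjusted p = 6.19e-13). GATA2, the factor of early progenitors, went from 1936 and 2121 to 1097 and 988.1, with 51.4% left. NFE2, which drives late globin and platelet genes, kept 54.2%. GATA1, the master factor of red cell genes, went from 1519 and 1743 to 1368 and 1386, 84.4% of DMSO, with an adjusted p of 0.0851 by edgeR, and was called lower when DMSO replicate 1 was left out (-0.34, edgeR adjusted p = 0.0359). MYB (chromosome 6, 135181315 to 135219173), a progenitor factor, had 1333 and 1409 in DMSO and 1306 and 1419 with the drug. Its groups overlapped, its change was -0.008 (SE 0.10), and on the TMM scale it was called higher at 0.24. TAL1 kept 74.1% and KLF1 79.8%; the call of TAL1 was lost without DMSO replicate 2 (edgeR adjusted p = 0.0606) or without actinomycin D replicate 1 (0.051), and that of KLF1 without DMSO replicate 1 (0.275) or either drug library (0.104 and 0.161).

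GATA1 and GATA2 are paralogues with alike DNA binding, and their labelled shares in DMSO were 1.41% and 9.12%, which placed GATA1 in the second decile and GATA2 in the ninth. Among KLF and SP factors 9 of 13 fell (69.2%, against 19.7% of all genes), with a median of -0.78 (-0.962 to -0.698 without 1 library). The count of falls moved when single libraries were left out. KLF10 was at 10.1% and KLF6 at 21.4% of DMSO.

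Zinc finger genes gave the most falls of the 41 lists, from the list with the most measured genes. Their share of falls stands beside 19.7% of all genes tested. Several lists had a larger share, among them immediate early transcription factors (92.3%) and KLF and SP factors (69.2%). Of 368 measured genes named ZNF, many of them KRAB-type repressors, 178 fell (48.4%; 110 on the TMM scale, and 91 or 110 on leaving out DMSO replicate 2 or actinomycin D replicate 1), with a median of -0.81 and 57.3% left. They were low in expression, with a median of 87.75 counts in DMSO, and 61 of the 160 placed in a decile were in the highest one. ZNF574 (chromosome 19, 42068477 to 42081549) was among the furthest from its decile, from 315.5 and 357.6 scaled counts to 33.77 and 42.26 (log2 change -3.14, SE 0.19, edgeR adjusted p = 8.83e-15) with a labelled share of 19.7%. ZNF184, ZNF57 and ZNF627 kept 7.74%, 8.6% and 10.3%. Not every member was lost: ZNF428, the ZNF gene with the highest counts among those not called, had 3153 and 3355 in DMSO and 2947 and 3213 with the drug. Of the ZBTB genes 20 of 34 fell (58.8%), with a median of -0.82 (-0.852 to -0.745 without 1 library). The count of falls moved when single libraries were left out.

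Long noncoding and host transcripts did not move as one. snoRNA host transcripts carry small nucleolar RNAs in their introns, and their spliced RNA is often degraded by nonsense-mediated decay. Their median labelled share was 14.1%, and 13 of 23 were in the highest decile. Of the 23, 12 fell (52.2%), with a median of -0.30. Above the median of their own decile lay 17 of the 23, and the median distance from it was 0.16. SNHG1 (chromosome 11, 62851988 to 62855914) had a labelled share of 26.5% and total levels of 2636 and 3150 in DMSO and 2682 and 3443 with the drug, so the groups overlapped; on the TMM scale it was called higher at 0.34. TAF1D, a subunit of the RNA polymerase I initiation complex whose gene hosts snoRNAs, had a share of 33.1% and went from 1851 and 2021 to 638.2 and 721.6 (35.1% left). SNHG3 kept 62.5% at a share of 20.3%, ZFAS1 81.2% at 9.58% and GAS5 82.2% at 11.1%. The call of ZFAS1 was lost on leaving out DMSO replicate 2, actinomycin D replicate 1 or actinomycin D replicate 2 (edgeR adjusted p = 0.213, 0.137 and 0.0655), and GAS5 was not called (0.0928); it was with DMSO replicate 1 left out (0.0456).

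MIR17HG, the host of the miR-17 cluster, was 57.4% labelled in DMSO and went from 422.1 and 461 to 54.63 and 64.31 scaled counts (13.5% left, log2 change -2.89, SE 0.16). MIR142HG, the host of miR-142, kept 11.6% at a share of 12%. KCNQ1OT1, an antisense RNA of an imprinted domain, kept 28.7%. NEAT1 (chromosome 11, 65422774 to 65445540), the RNA core of paraspeckles, had a share of 20.4% and stood at 509.1 and 638.2 in DMSO and at 496.6 and 791.5 with the drug, and it was called higher when actinomycin D replicate 1 was left out (0.47, edgeR adjusted p = 0.0384). MALAT1, an abundant nuclear RNA, stood at 87.7% and was not called; it was with actinomycin D replicate 2 left out (-0.36, edgeR adjusted p = 0.0461).

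Lists of stress, survival and transcription genes had members at both ends. Of 26 genes of the integrated stress response 14 fell (53.8%), with a median of -0.59 (-0.38 without actinomycin D replicate 1). Of 16 BCL2 family genes 4 fell (25%), with a median of -0.30 (-0.23 without DMSO replicate 2). Of 12 RNA polymerase II subunits 2 fell (16.7%), with a median of -0.13 (-0.001 without actinomycin D replicate 1, -0.25 without DMSO replicate 1). The last 2 shares were near the 19.7% of all genes tested, whose median was -0.27. These small counts moved when single libraries were left out. GDF15, a stress cytokine, went from 449.5 and 412.6 to 143 and 124.9 (31.1% left), ATF4, the central factor of the response, kept 72.1%, and the chaperone HSPA5, at 83.6%, was not called; it was with DMSO replicate 1 left out (-0.35, edgeR adjusted p = 0.0387). The call of ATF4 was lost without DMSO replicate 2 (log2 change -0.30, edgeR adjusted p = 0.221) or without actinomycin D replicate 1 (-0.30, 0.171). MCL1 (chromosome 1, 150574551 to 150579738), a short-lived survival protein of the BCL2 family, went from 1207 and 1334 to 549.3 and 569.6, with 44% left and a labelled share of 7.89%. BRD2, a BET bromodomain protein, went from 2265 and 2312 to 896.9 and 1017, with 41.8% left. HEXIM1 and MEPCE, both of the 7SK particle that holds P-TEFb inactive, kept 61% and 41.7%. TXNIP, a glucose-responsive inhibitor of thioredoxin, kept 32.9% at a share of 47.6%. The fatty acid synthase FASN, a sterol-regulated gene, was at 95.3% and was not called. The splicing factors included CLK1, a kinase of SR proteins, at 29.8% left, and SRSF3 at 78.4%, whose call was lost without DMSO replicate 2 (edgeR adjusted p = 0.167) or without actinomycin D replicate 1 (0.115).

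The machinery of translation and energy supply was little changed per amount of RNA. Of 83 cytosolic ribosomal protein genes 2 fell (2.41%, against 19.7% of all genes). Their median was 0.02 (-0.054 to 0.075 without 1 library), with a median labelled share of 0.833%. On the TMM scale 55 rose and 1 fell, where 5.43% of all genes tested rose and 7.91% fell. RPL22L1, a paralogue of RPL22, was one of the falls and had a share of 15.4%, from 672.1 and 785.1 scaled counts to 406.2 and 457.1. RPL17 was the other, with 66.9% left and 35 annotated bases of 3′ UTR, and its call was lost without DMSO replicate 2 (log2 change -0.38, edgeR adjusted p = 0.11). RPS24 and RPL27A stood at 101% and 106%, and on the TMM scale both were called higher. Of 84 nuclear-encoded respiratory chain subunits 3 fell, with a median of -0.02 (41 higher on the TMM scale), of 34 proteasome subunits 3, and of 19 glycolysis genes 1. Counts this small moved with single libraries: without DMSO replicate 2 they were 1 ribosomal protein, 1 respiratory chain, 0 proteasome and 0 glycolysis genes, without DMSO replicate 1 they were 3, 5, 3 and 1, without actinomycin D replicate 1 they were 2, 2, 1 and 1, and without actinomycin D replicate 2 they were 2, 1, 0 and 0. GAPDH had 102% of its DMSO level and PKM 105%, both called higher on the TMM scale (0.29 and 0.33), and ACTB 96.9%. EEF1A1, the elongation factor that delivers tRNA to the ribosome, was at 97.5% and was called higher on the TMM scale (0.22). Among 34 translation elongation and initiation factors 4 fell (1 without DMSO replicate 2, 2 without actinomycin D replicate 2; 1 fell and 12 rose on the TMM scale). They were EIF4A2, a helicase of translation initiation whose gene hosts snoRNAs, with a share of 24.9% and 68.6% left, EIF3A with 74.5%, EIF5 with 75.9% and the cap-binding EIF4E with 80.2%. The calls of EIF3A, EIF5 and EIF4E were lost on leaving out DMSO replicate 2 (edgeR adjusted p = 0.361, 0.233 and 0.265), and each also on leaving out a drug library (up to 0.139, 0.0563 and 0.122).

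The erythroid products of K562 cells were likewise kept. The γ-globins HBG1 and HBG2, near-identical copies between which reads can be split wrongly, had 99% and 94.8% of DMSO, and the embryonic HBZ 105%. In the list of globins, heme synthesis and glycophorins 2 of 25 fell (1 without DMSO replicate 2 or either drug library; on the TMM scale 1 fell and 6 rose), one of them ALAS1, the housekeeping first enzyme of heme synthesis, from 107.6 and 117.2 to 53.14 and 48.23. The ferritins FTH1 and FTL stood at 96.6% and 104%, with FTL called higher on the TMM scale (0.30), and TFRC, the transferrin receptor, at 87.9% with a labelled share of 6.61%, not called. Among the chaperones, HSPB1 and HSP90AB1 were at 111% and 95.4% and were not called, and DNAJB1, a stress-induced partner of HSP70, kept 43.3%.

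Some genes left the band set by their labelled share. The 8 genes farthest above the median of their decile, among those with a mean of at least 300 DMSO counts, were RSRP1, NEAT1, SNHG1, PIM1, KHDC4, FANCA, MSMO1 and MPHOSPH9. All were above 9% labelled in DMSO, and their total RNA stood between 93.6% and 130% of DMSO. PIM1 (chromosome 6, 37170203 to 37175426), a kinase induced by STAT5, had 739.1 and 531.4 scaled counts in DMSO and 798.1 and 857.6 with the drug, with an SE of 0.29 on the log2 scale. It was not called with all 10 libraries in the fit and was called higher with the 4 compared ones alone (0.38, edgeR adjusted p = 0.0284). Its relatives differed: PIM2 was at 84.9%, not called, and PIM3 fell. KHDC4, an RNA-binding protein, had a share of 25.6% with 269.1 and 310.8 against 294 and 286.6. RSRP1 stood at 283.3 and 407.7 against 433.6 and 454.3, with an edgeR adjusted p of 0.0561, and was called higher without DMSO replicate 2 (0.65, 0.00605) and on the TMM scale (0.62). In none of the 8 genes did the drug libraries both lie below both DMSO libraries, beside 52.3% of all genes tested. The 8 were picked by this same change, so that was largely set in advance.

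Farthest below the median of their decile were ENSG00000264066, EGR1, ZNF574, MIR142HG, NFKBIA, MIR17HG, MYLIP and IER3. IER3 (chromosome 6, 30743199 to 30744554), an immediate early gene of survival signalling, went from 508.6 and 502.3 to 74 and 97.38 (17% left, log2 change -2.56, SE 0.15). MYLIP, a ubiquitin ligase, had a share of 64.8%, the highest of all genes placed in deciles, and kept 15.1%. These 16 genes were picked by their distance from the decile, so that distance is a description.

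The loss was also set beside the sequence and structure of the transcripts. These are 3′ libraries, so the reads themselves come largely from 3′ UTRs, and the part of base content in the labelled share was not tested. One motif of AU-rich elements, TATTTAT as written in DNA letters, was counted on the sense strand of the annotated 3′ UTR of 8120 protein-coding genes. First sites of 9 genes are shown because they span quickly lost and kept messages; motif bases are in capitals, 10 bases flank each side, letters run 5′ to 3′ on the gene's strand, and positions are on hg38 from the GENCODE release 29 transcript.
IER3, minus strand, chr6:30743654-30743680: tcctaattaaTATTTATatgTATTTAT
NFKBIA, minus strand, chr14:35401700-35401726: ccacattttaTATTTATtgtgcttcga
CISH, minus strand, chr3:50607099-50607125: aattatacacTATTTATTTATTTATtc
GDF15, plus strand, chr19:18389038-18389064: caaacagctgTATTTATataagtctgt
IER5, plus strand, chr1:181091981-181092007: cataataatgTATTTATagaattaaac
ZFP36L1, minus strand, chr14:68788337-68788363: tatcaaaacgTATTTATtgccaaacta
MCL1, minus strand, chr1:150575808-150575834: cctctacagaTATTTATatcaattcct
PIM1, plus strand, chr6:37174982-37175008: caatgttatgTATTTATTTATTTATTT
FTH1, minus strand, chr11:61964433-61964459: cgagtatttgTATTTATtaaactcatt

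The first 7 of these kept between 12.5% and 44% of their RNA, with IER5 at 32.1%. PIM1 holds 4 motifs, overlapping ones counted apart, and FTH1 holds 1, and neither was called lower. EGR1, JUNB and ZNF574 hold none in the annotated UTR and were among the furthest run down. A match is a description of letters in this window and not a mapped binding site.

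Across genes the median loss was larger with the motif than without it in each quintile of UTR length. With 1 or more motifs the medians from the shortest to the longest quintile were -0.22, -0.29, -0.30, -0.32 and -0.32, and with none they were -0.10, -0.17, -0.21, -0.24 and -0.26. Among the shortest quintile of 3′ UTRs, 2 to 332 bases, the median change was -0.10 in 1516 genes with no motif, -0.22 in 101 genes with 1, -0.69 in 4 genes with 2 and -1.69 in 3 genes with 3 or more. In the next quintile, 332 to 748 bases, the medians were -0.17, -0.25, -0.44 and -1.23, the last in 7 genes. The sets of 3, 4 and 7 genes are too thin to give more than their values; with 2 or more motifs pooled the medians were -0.89 in 7 genes and -0.44 in 31. In the longest quintile, over 2766 bases, they were -0.26, -0.31, -0.36 and -0.34. The motif was present in 6.65% of the shortest and 67.8% of the longest UTRs. Between the lowest and the highest decile by labelled share the share of genes with the motif rose from 11.7% to 50.4%, the median UTR length from 349 to 1736 bases, and the motifs per 1000 UTR bases from 0.189 to 0.437. Length and motif were not separated further.

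**Figure D3:**
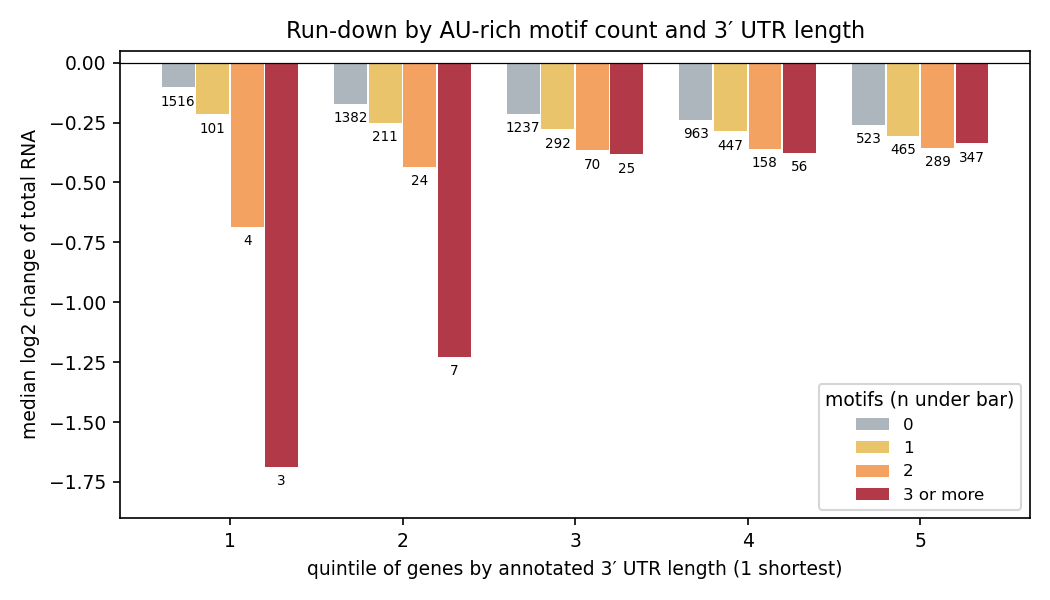
Median log2 change of total RNA (bars, y axis) for protein-coding genes in quintiles of annotated 3′ UTR length (x axis), split by the number of AU-rich motifs, with the number of genes under each bar. The bars spread from -0.10 to -1.69 in the shortest quintile and only from -0.26 to -0.36 in the longest, and the deepest bars hold 3 and 7 genes.

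Gene structure moved with the loss too. Genes with 1 exon had a median change of -0.50 and 78 of 137 fell (56.9%), those with 2 to 3 exons -0.35 with 41.8% falling, and those with 4 to 7 exons -0.19 with 22.9%. Beyond that the medians were -0.21 and -0.23, with no further trend, and leaving out the ZNF genes gave -0.34 for 2 to 3 exons. Median labelled shares in the same order were 7.46%, 4.99% and 3.04%. By coding length the loss was larger in longer genes, from -0.13 in the shortest to -0.30 in the longest quintile. By type, long intergenic noncoding genes with at least 100 counts had a median of -0.31 and antisense genes -0.38, beside -0.22 for nuclear protein-coding genes.

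Mitochondrial RNA is made as long transcripts of both strands of the circular chromosome by a separate polymerase and is cut at tRNAs into single mRNAs. Its sum with actinomycin D was 101% of DMSO, beside 92.4% for all other genes. MT-TF, a tRNA gene, carried that sum: without it, a sum taken after the values were seen, 65.4% of the DMSO level was left (210800 and 238800 scaled counts in DMSO, 143800 and 150400 with the drug). Of 24 features tested, 14 fell and 3 rose. MT-ND1, a subunit of complex I encoded at positions 3307 to 4262, went from 2129 and 1914 scaled counts to 280.1 and 274.2 (13.7% left, log2 change -2.87, SE 0.11, edgeR adjusted p = 7.03e-22). MT-ND6, which lies on the opposite strand, kept 13.3%, MT-ND3 35.7%, MT-CYB 37.8% and MT-ND2 53.9%. MT-ND4 was at 101% and MT-ATP6 at 83.5%, neither called. MT-CO1, the core subunit of complex IV, went up from 467.9 and 447.8 to 835.3 and 906.3 (log2 change 0.93, SE 0.12, edgeR adjusted p = 1.33e-07), MT-ND5 rose by 0.60, and MT-TF rose by 0.82. For these named features the direction was the same on the TMM scale. MT-ND4 was called higher there at 0.26, and MT-ATP6 was at -0.004.

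The sources used here do not say whether counting used strand, so reads of MT-ND5 and MT-ND6, which lie on opposite strands side by side, may be shared. MT-TF alone held more counts than any mRNA of this chromosome, 207552 and 194415 in DMSO. Reads can also be shared with pseudogene copies of mitochondrial genes. MTCO1P12 held 29468 counts over both DMSO libraries and 23669 over both drug libraries, and MTATP8P1 held 378905 and 355504. MT-CO1 itself had 887 and 814 raw counts in DMSO. The rise of MT-CO1 and the mitochondrial sums are therefore uncertain, and the part of shared reads was not tested.

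**Figure D4:**
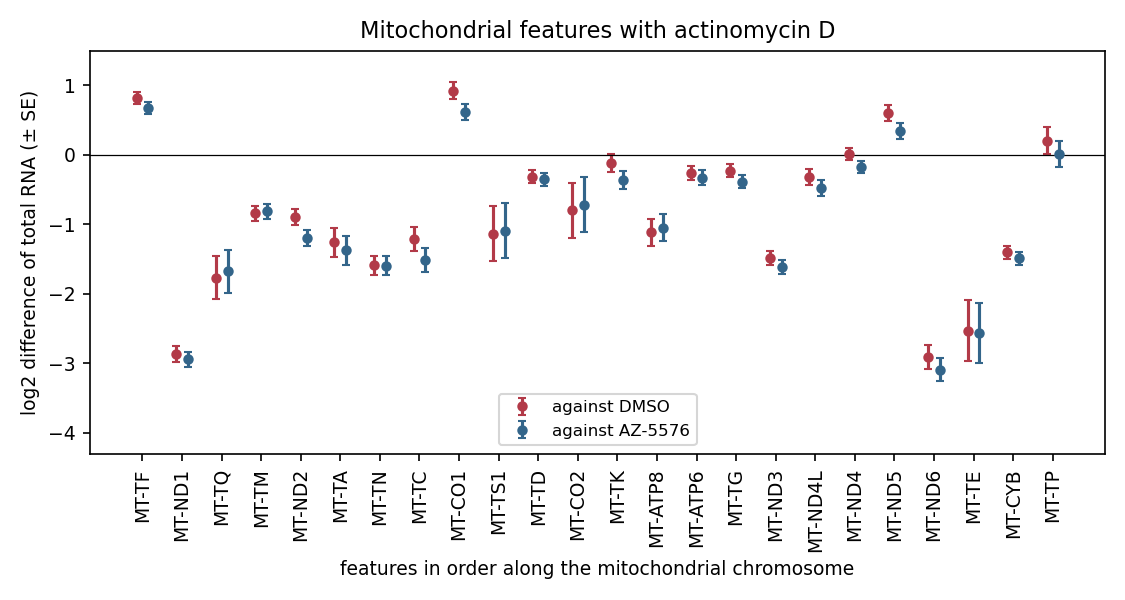
Log2 difference of total RNA (y axis, ± SE) for 24 features in their order along the mitochondrial chromosome, actinomycin D against DMSO in red and against AZ-5576 in blue. MT-ND1 and MT-ND6 lie near -2.9 against DMSO, MT-CO1, MT-TF and MT-ND5 lie above 0, and the 2 contrasts lie close together.

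The 49 genes with higher total RNA were mostly copies of other genes. Pseudogenes made up 28 of them, 26 processed ones, and only 7 were nuclear protein-coding genes. RPL34P6 (1316% of DMSO) went from 71.75 and 56.67 scaled counts to 840.3 and 849.3, and RPS3P1 from 184.6 and 143.6 to 924.7 and 1079, 2 examples chosen after their values were seen. Both are processed pseudogenes of ribosomal protein genes, reads of which can be shared with the parent gene, so their levels are uncertain. Of 328 tested pseudogenes with RPL or RPS symbols 12 rose and 53 fell, with a median of -0.25. Of 23 tested genes with SNORA, SNORD or SCARNA symbols 6 rose and 3 fell, beside 0.336% and 19.7% of all genes tested, and the median was 0.67. SCARNA9, a small RNA that guides modification of spliceosomal RNA, went from 55.92 and 57.77 to 207.1 and 265 (log2 change 2.05, SE 0.18, edgeR adjusted p = 2.47e-11). SNORD49A had 3 and 10 raw counts in DMSO and 59 and 57 with the drug. The other 4 risers, SNORD84, SNORD13, SNORD43 and SNORA33, had between 0 and 7 raw counts per DMSO library, and the calls of SNORD13, SNORD43 and SNORA33 were lost when single libraries were left out (edgeR adjusted p up to 0.19, 0.206 and 0.219).

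Among nuclear protein-coding genes, the rise of CBS, an enzyme of cysteine synthesis, from 136.6 and 165 to 204.1 and 284.3 was lost without DMSO replicate 1 (edgeR adjusted p = 0.0645) or actinomycin D replicate 2 (0.146, log2 change 0.44). H3-5, a retrocopy of a histone H3.3 gene with shared sequence, went from 10.55 and 8.252 to 27.81 and 39.96. MTRNR2L10, a nuclear copy of mitochondrial rRNA sequence, went from 556.1 and 570 to 908.8 and 905.8. IER3-AS1, antisense to IER3, rose from 11.08 and 15.4 to 29.3 and 27.56, and the call was lost whichever of the 4 libraries was left out (edgeR adjusted p between 0.11 and 0.215).

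The few labelled counts left with the drug lay in unusual places. Of 3024 labelled counts over both drug libraries, 39.6% fell in pseudogenes, which held 7.15% of labelled counts in DMSO and 6.75% of total counts with the drug. Of 42 genes with at least 10 such counts, 14 kept a labelled share of at least 50% of their DMSO share, and 13 of the 14 were pseudogenes. RPL31P49 alone had 144 and 220, and its labelled share was 88.8% with the drug (95% Wilson interval 85.4 to 91.5) and 53.7% in DMSO. CCNHP1 was 100% labelled in both groups, with 18 and 27 reads in all. In contrast RPL38, a ribosomal protein gene with 142 and 163 labelled counts, had a share of 0.513% with the drug and 1.36% in DMSO. The intervals cover counting error only.

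Actinomycin D was set against AZ-5576 directly, with no DMSO library in the contrast, since CDK9 releases paused RNA polymerase II and its inhibition is another way to halt mRNA synthesis. Total RNA was lower with actinomycin D in 292 genes (2%) and higher in 54 (0.371%), out of 14572, beside 186 and 76 on the TMM scale. On the spike-in scale the median log2 difference over all genes was -0.084. Leaving out 1 library of either drug gave 120 to 185 lower and 18 to 38 higher. The mitochondrial features stood apart, with 15 of 24 lower and 2 higher with actinomycin D, and MT-ND1 was lower by a log2 difference of -2.95 (SE 0.11, edgeR adjusted p = 4.29e-22). Among nuclear genes EGR1 was at -1.88 (edgeR adjusted p = 0.00158; -1.26 and -3.11 without actinomycin D replicate 1 and 2), MIR142HG at -1.68 (1.43e-05) and KCNQ1OT1 at -1.46 (6.31e-06). On the other side MIR17HG was at 1.27 (8.68e-05) and ZFP36L2 at 1.27 (1.25e-06), so each was lower with AZ-5576. ID2 was at 0.82 (0.00164) and its call was lost without actinomycin D replicate 2 (0.0557) or without AZ-5576 replicate 1 (0.145). JUN, NFKBIA, IER3, MCL1 and BRD2 differed by 0.05, 0.07, 0.08, 0.001 and 0.008, with SEs of 0.26, 0.30, 0.17, 0.11 and 0.10, and were not called.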

How the data were processed

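Counts were deposited as 3 tables of raw read counts per gene, per the file headers: all human reads, human reads with T-to-C conversions and Drosophila reads. Per the labels' protocols, 5% S2 cell RNA was added, iodoacetamide converted the label, and QuantSeq 3′ libraries were made. Per the submitters' processing notes the tools included Trim Galore 0.6.5, bedtools and bcl2fastq 2.17.1.14, and the builds were hg38 and dm6. The sources used here name no aligner and no conversion caller. A false conversion, or a polymorphism read as one, would count as label.

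Groups came from the sample titles. The quasi-likelihood test of edgeR 4.0.16 (R 4.3.3; robust, two-sided) was fitted to all 10 libraries with group as the only term and spike-in totals as library sizes. Genes needed 10 counts in 2 or more libraries, and a call needed a p under 0.05 after Benjamini-Hochberg adjustment over all genes. This left 5 residual degrees of freedom. A 2 against 2 permutation cannot go below p = 0.33, so library values carry no p. The SE is the fitted change over the root of the F statistic. Alternatives were TMM, DESeq2 1.42.0, other filters, leaving out each library and a replicate block. Spike-in counts per library of the 4 were 1817677 to 2176968. Symbols, types and UTRs came from GENCODE release 29, which held 55838 of 59204 identifiers.

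Members, lists and tests were chosen with earlier results of these data known. Named genes were a panel, the 15 largest falls and 10 largest rises with at least 50 mean counts (no pseudogenes, groups not overlapping), per list up to 4 called and 2 uncalled members, by counts, and the 8 farthest above and below their decile; the text gives a part of them, and features outside the rule are said to be so or belong to the mitochondrial chromosome, the left-over label or the rises.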

Additional observations from a re-analysis of the deposited data

How the results depend on the processing

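In total RNA more genes fell than rose under each alternative, but by a wide margin only on the spike-in scale. The counts moved mostly with the scale and with single libraries. Falls in total RNA numbered 1153 with TMM and 1035 with DESeq2's own size factors, rises 791 and 732, and the median of all genes was -0.016 with TMM; with both, genes are set against their own bulk. Leaving out 1 library gave 1205 to 2725 falls, 27 to 47 rises and medians from -0.33 to -0.19. Labelled falls were 711 with TMM and 634 with DESeq2's own size factors, with 34 and 47 rises, and 2360 with a minimum of 50 counts, where fewer genes were tested; leaving out 1 library gave 7435 to 7841 falls. Against AZ-5576, 158 to 206 of 346 genes were called when 1 library was left out, beside 262 with TMM. The highest decile had a median of -0.94 with a minimum of 50 counts, -0.63 with 300, -0.55 with TMM, -0.88 and -0.70 with share and change from different DMSO libraries, and -0.89 to -0.73 without 1 library; the cause of these moves was not tested. The lowest decile was at 0.25 with TMM and between -0.075 and 0.063 without 1 library. With a replicate block 3648 genes fell and 68 rose (477 differed from AZ-5576). Same-numbered DMSO and actinomycin D libraries deviated with a correlation of -0.097 over 7918 genes. Replicate 2 had more human counts per spike-in count than replicate 1 with DMSO (8.99 and 8.18) and with actinomycin D (8.23 and 7.69). Whether same-numbered libraries are paired is not settled by these values. The block also called GATA1, PIM2, HSPA5, GAS5, RSRP1 and MT-ATP6. Of the named genes, 21 changed sign with TMM, and of these MYB (0.24) and EEF1A1 (0.22) were called higher there; the falls of ATF4, TAL1, KLF1, ZFAS1, SRSF3, RPL17, EIF3A, EIF5 and EIF4E were not called with it. With 2 libraries a group and a spread of 10.9% in total and 24.8% in labelled RNA (common biological coefficient of variation), small falls of low genes were not detectable.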

Other observations

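Lists of cell division, nutrient uptake and RNA machinery held both quickly lost and kept messages. Of 47 genes of DNA replication and S phase 11 fell (23.4%, against 19.7% of all genes), with 4 falls on leaving out DMSO replicate 2 and 5 on leaving out actinomycin D replicate 1. CDT1, which licenses replication origins, went from 1237 and 1266 scaled counts to 734 and 825, with 62.3% left. E2F1, a transcription factor of S phase entry, kept 66.5%, while MCM7, a subunit of the replicative helicase, stood at 88.8% and was not called. Of 38 genes of G2 and mitosis 8 fell (21.1%, near the 19.7% of all genes), with a median of -0.18 (-0.07 without DMSO replicate 2). That count moved when single libraries were left out. AURKA, a mitotic kinase, went from 1059 and 1242 to 784.2 and 812.6 (69.4% left), whereas CDC20, an activator of the anaphase-promoting complex, had 2859 and 3361 in DMSO and 3194 and 3186 with the drug, with a labelled share of 0.373% and a call as higher on the TMM scale (0.29). Of the BCL2 family, BCL2L11, which encodes the pro-death protein BIM, kept 45.7%, going from 125.6 and 113.3 to 58.1 and 50.99.

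Of 196 solute carriers 32 fell (16.3%, near the 19.7% of all genes), with a median of -0.22 (-0.16 without DMSO replicate 2). That count too moved when single libraries were left out. The amino acid transporters SLC38A2 and SLC3A2 kept 41.1% and 48.9%, with labelled shares of 14.8% and 18.5%, while SLC25A5, the mitochondrial ADP/ATP carrier, was at 88.8% with a share of 1.27% and was not called. Of 51 F-box genes 18 fell (35.3%, against 19.7% of all genes), with a median of -0.40 (-0.33 without DMSO replicate 2). The count of F-box falls also moved when single libraries were left out. Among the falls were FBXO30 with 40.2% left and FBXW7, a substrate receptor for MYC degradation, with 56.4%. The core decay machinery itself had 13 falls in 52 genes (25%, near the 19.7% of all genes), and 5 on leaving out DMSO replicate 2 or actinomycin D replicate 1. UPF2, a factor of nonsense-mediated decay, went from 1167 and 1155 to 755.9 and 755.2, and LSM4, of the ring that binds deadenylated ends, had 103% of DMSO and was called higher on the TMM scale (0.29). In ribosome biogenesis 13 of 35 genes fell (37.1%, against 19.7% of all genes), with a median of -0.27 (-0.22 without DMSO replicate 2). Here too the count moved when single libraries were left out. The abundant NPM1 and FBL stood at 92.5% and 102% and were not called, FBL being called higher on the TMM scale (0.28).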
